A study of Mus musculus with 6 samples.

Results

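The library described here is of mouse bone marrow cultured in medium conditioned by VpR126, a clear cell renal cell carcinoma (ccRCC) cell line. It is 1 of 6 bulk RNA-seq libraries and was set against the 3 libraries of marrow in medium from the ccRCC lines VpR83, VpR99 and VpR2020. Conditioned medium is medium in which the tumour cells have grown, and it carries what they secrete. The 2 other libraries, control 1 and control 2, are labelled as marrow in control medium and serve as the reference level. Their count columns are headed as bone marrow and name no medium, and the design text of the series names marrow taken fresh, so the medium and time in culture cannot be told apart between controls and conditioned libraries. The VpR126 column is also tagged LT2, as those of VpR83 and VpR99 are tagged Ctrl and T1, and the meaning of these tags is not stated. Strain, age, sex, culture time and batch are not stated in the labels. All 6 libraries share the tissue, the RNA kit and a stranded TruSeq library kit.

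Each conditioned medium was represented by 1 library, so nothing here has a replicate check of VpR126 itself, and no p-value is given. The VpR126 library was selected on its expression values in these data, with Itga2b, Saa3 and H2-Ab1 as its marker genes, so the differences are a description of this library and not a test of its medium. What the VpR126 line secretes, the culture, the animals and the preparation of this library cannot be told apart.

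Marrow holds the blood-forming cells and their progeny. In culture with growth factors for myeloid cells, monocytes and their progenitors become macrophages, while granulocytes are short-lived. Megakaryocytes are the large marrow cells that shed platelets, and they carry the adhesion receptors with which platelets bind fibrinogen, collagen and von Willebrand factor. Interferons induce antiviral genes, and interferon gamma also induces antigen presentation on MHC molecules. ATF4, a transcription factor of the integrated stress response, drives genes of amino acid synthesis and uptake.

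Total counts were 25714176 in VpR126, 28055913 in VpR83, 19412158 in VpR2020 and 129120559 in VpR99, the deepest library. The controls held 27448621 and 18629708. Values are counts scaled to library size (CPM) after TMM scaling of the 6 libraries. A gene with 0 counts may hold up to 3 counts, which is 0.126 CPM in VpR126 and 0.0251 to 0.165 CPM over the 6 libraries. Counting intervals here are exact 95% intervals and cover counting error only. The macrophage list, summed over its 19 genes, reached 19415 CPM in VpR126, 8589 to 14980 CPM in the other media and 669 to 788 CPM in the controls. The late neutrophil list summed to 11739 CPM in VpR126, 4167 to 19975 CPM in the other media and 91604 to 97681 CPM in the controls.

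VpR126 lay farther from VpR83 and VpR99 than from VpR2020. Of 10550 genes with at least 5 CPM in at least 1 conditioned library, 1038 (9.84%) differed by more than 2-fold between VpR126 and VpR2020, of which 782 were higher in VpR126 and 256 in VpR2020. Between VpR126 and VpR83 the number was 1658 (15.7%), and between VpR126 and VpR99 it was 1815 (17.2%). Among the other media the numbers ranged from 554 (5.25%) for VpR83 and VpR2020 to 1545 (14.6%) for VpR99 and VpR2020. The distance between VpR126 and its nearest medium was therefore smaller than one of the distances among the others.

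A gene was counted as higher where VpR126 had at least 5 CPM and more than 2 times the highest of the other 3 media, and as lower where the lowest of the other 3 had at least 5 CPM and VpR126 less than 0.5 times that. By these rules 352 genes (3.34% of 10550) were higher in VpR126 and 77 (0.73%) were lower. The higher side admits genes with at least 5 CPM in VpR126 alone, where a low level elsewhere favours the call. Without VpR99 the counts were 656 higher and 158 lower, without VpR2020 448 and 633, and without VpR83 306 and 131. The lower count thus moved by more than 1.5 times whichever medium was left out. Over all 10550 genes VpR126 was the highest of the 4 conditioned libraries for 26.4% and the lowest for 38.1%, and the median log2 difference between VpR126 and the mean of the others was -0.11 (0.5 CPM added to both sides). Just inside the threshold among genes with at least 50 CPM were Ddx60 (123 CPM in VpR126, 61.4 in VpR99) and Icosl (68.2 CPM in VpR126, 34.1 in VpR83). Ptafr, at 476 CPM in VpR126 and 238 in VpR2020, and Xaf1, at 98.8 and 49.6 in VpR99, fell just outside it. On the lower side Cdc25b (31.9 CPM against 63.7 in VpR2020) and Cpd (182 against 364 in VpR2020) were just inside, and Hmmr (19.8 against 39) and Prr11 (16.8 against 33.1) just outside.

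**Figure D1:**
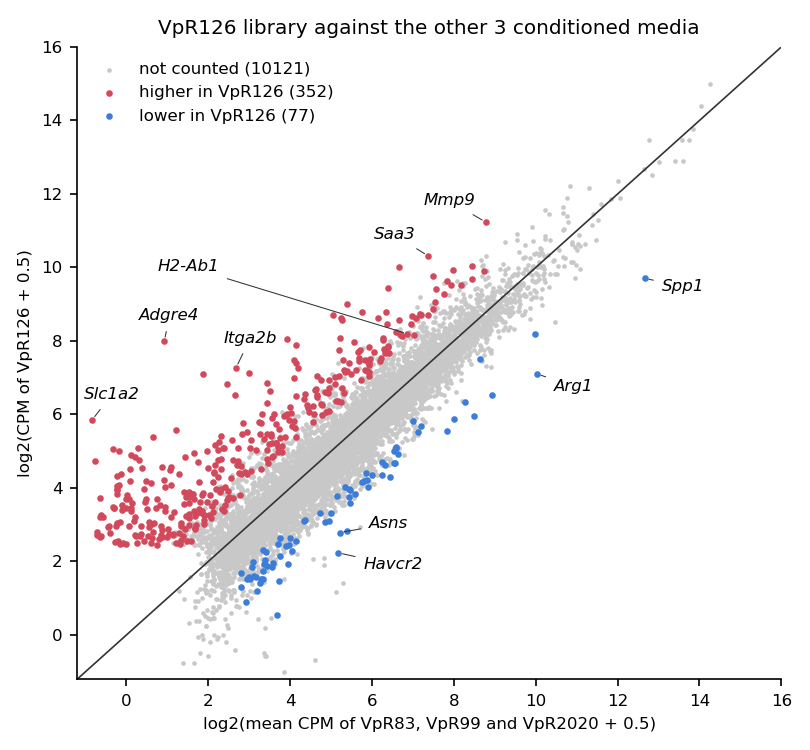
Each of 10550 genes by its level in the VpR126 library (y axis) and the mean of the VpR83, VpR99 and VpR2020 libraries (x axis), both as log2(CPM + 0.5), with the line of equality. The 352 genes counted higher spread upward from the lowest x values, and the 77 counted lower lie below the line, Spp1 and Arg1 among them.

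Set against the controls, the higher genes were not of one kind. VpR126 lay above both controls for 290 of the 352 genes, below both for 51 and between them for 11. Over all 10550 genes it lay above both controls for 5505 and below both for 4293. For 105 of the 352 genes the other 3 media were already above both controls and VpR126 was further above. For 150 the other media were all below both controls. In 89 of these VpR126 was above the controls, and in 51 it was below them, closer to the reference level than the other media were. Of the 77 lower genes, VpR126 was above both controls for 27 and below both for 46. For 42 the other 3 media were above both controls, and VpR126 was below both for 12 of these. By annotation, 319 of the 352 higher and 73 of the 77 lower genes were protein-coding, and the share over all genes was not computed.

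Genes of megakaryocytes and platelets held the highest share of counted members among the gene lists. Of 25 listed genes 23 reached 5 CPM, 16 of these were higher in VpR126 (69.6% against 3.34% of all genes) and none was lower. Their median log2 difference was 3.69, or 2.62 with 2 CPM added in place of 0.5, against -0.11 over all genes. Itga2b (ENSMUSG00000034664, chr11:102453297-102470122, minus strand, GRCm38) encodes integrin alpha IIb, the platelet fibrinogen receptor subunit that marks the megakaryocyte lineage. It stood at 154 CPM in VpR126 (interval 149 to 159). It stood at 2.65 CPM in VpR83, 7.47 in VpR99, 7.59 in VpR2020, 35.1 in control 1 and 37.1 in control 2. The other 3 media thus lay below both controls and VpR126 above them, 20.3 times the nearest medium (interval 17.1 to 24.2). In such bulk libraries, more cells of a type and more RNA per cell cannot be told apart.

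Itgb3, the integrin beta 3 partner of Itga2b that macrophages and osteoclasts also carry, stood at 264 CPM in VpR126. Its level was 8.53 CPM in VpR83, 18.3 in VpR99 and 17 in VpR2020, and 52.9 and 67.6 in the controls. The receptor for von Willebrand factor is built of the products of Gp1ba, Gp1bb, Gp9 and Gp5, and each of these genes was counted. Gp1ba stood at 41.1 CPM in VpR126, between 0.708 and 1.42 CPM in the other media and at 3.81 and 4.91 in the controls. Gp9 stood at 16.2 CPM in VpR126, between 0.0745 and 0.55 in the other media and at 6.53 and 5.01 in the controls. Gp1bb (13.4 CPM in VpR126, at most 0.824 in the others) and Gp5 (28 CPM, at most 1.04) had the same order. Gp6, the platelet collagen receptor, was at 6.07 CPM in VpR126 and at most 0.165 CPM in the other media.

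Further genes of the lineage were also higher in VpR126 than in the other media, though those media were not always below both controls. Tubb1, the platelet beta tubulin, stood at 15.3 CPM in VpR126, at most 0.44 in the other media and 1.16 and 2.6 in the controls. Rab27b, a GTPase of granule release, stood at 29.5 CPM in VpR126 and at most 0.824 in the other media. Mmrn1, which encodes a protein stored in platelet granules, stood at 33.3 CPM in VpR126 and at most 0.934 in the others. Clec1b, Selp, F2rl2, Treml1 and Gata1 were counted as well. Gata1, the transcription factor of megakaryocytes, red cells and eosinophils, differed from these in its reference level: 10.5 CPM in VpR126, 0 counts in VpR83, 0.427 and 0.495 CPM in VpR99 and VpR2020, and 75.1 and 76.8 CPM in the controls.

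The members not counted include the platelet chemokines. Pf4 stood at 1047 CPM in VpR126, 642 in VpR83, 1970 in VpR99 and 1850 in VpR2020, against 10.8 and 14.3 in the controls. Ppbp stood at 232 CPM in VpR126, 31 in VpR83, 434 in VpR99 and 465 in VpR2020. Vwf, the von Willebrand factor itself, stood at 139 CPM in VpR126 within a range of 37 to 168 CPM in the other media. For Pf4, Ppbp and Vwf VpR126 lay inside the range of the other media, and all 4 media lay above the controls. Because of Pf4 and Thbs1 the list's summed CPM did not set VpR126 apart: 5152 in VpR126, 2035 in VpR83, 5367 in VpR99 and 4802 in VpR2020.

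**Figure D2:**
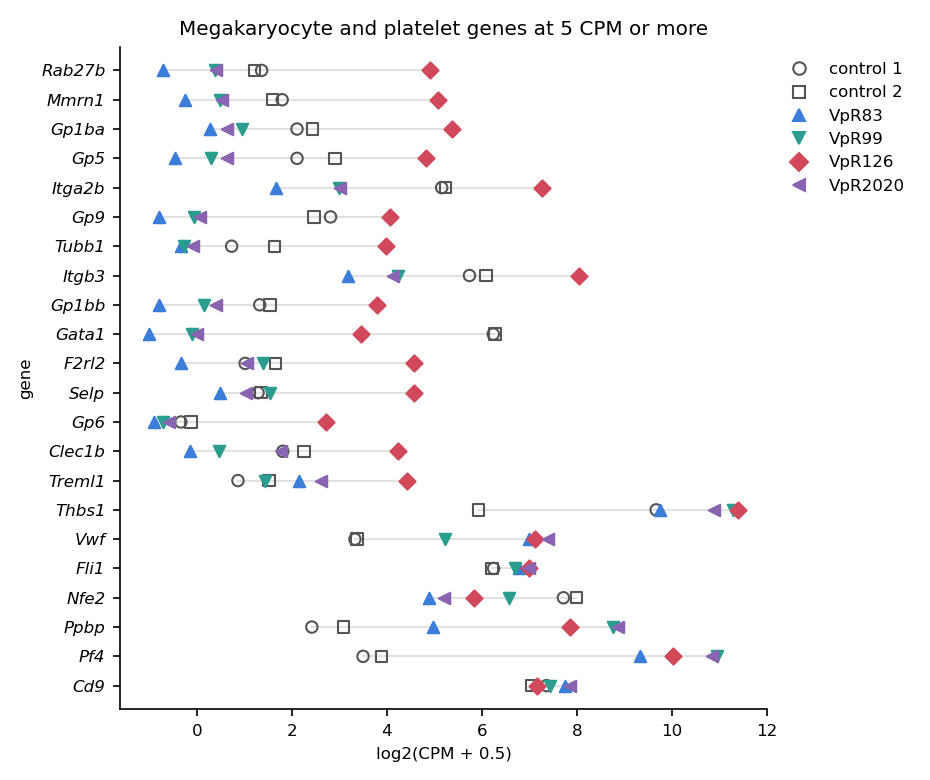
Shown are 22 of the 23 megakaryocyte and platelet genes with at least 5 CPM (y axis, by decreasing difference) and their level in each of the 6 libraries as log2(CPM + 0.5) (x axis), 1 symbol per library and a grey line over the range. VpR126 (diamonds) lies to the right of the other 3 media in the upper 15 rows and within or near their range in the lower 7.

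Several of the 12 protein-coding genes with the largest ratios to the nearest medium are known from platelets or phagocytes. Slc6a4, the serotonin transporter with which platelets load serotonin, stood at 26.1 CPM in VpR126, had 0 counts in VpR83 and 0.1 and 0.165 CPM in VpR99 and VpR2020. Alox12, the platelet 12-lipoxygenase, stood at 32.6 CPM in VpR126 and at most 0.44 in the other media. Nrgn, a calmodulin-binding protein also found in platelets, stood at 31.6 CPM in VpR126, at most 0.527 in the other media and 16.9 and 19.5 in the controls. Gucy1b1, a subunit of the nitric oxide receptor guanylate cyclase, stood at 20.2 CPM against at most 0.519, and Cavin2, a coat protein of caveolae, at 19.6 against at most 0.495. Pls1 (12.8 CPM), Fhl1 (9.14) and Gcsam (8.76) were each at most 0.243 CPM in the other 3 media. The remaining members of the 12 are Gp6, described above, and Slc1a2, Adgre4 and Ccl5.

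Slc1a2, a glutamate transporter, had the largest ratio of all. It was at 57.3 CPM (1359 counts) in VpR126 and at 2, 6 and 1 counts in VpR83, VpR99 and VpR2020. Control 1 held 191 counts (6.17 CPM) and control 2 held 2, so the reference libraries themselves disagreed. The ratio to VpR83, the nearest medium, was 768 with a counting interval of 212 to 6351. Adgre4, an adhesion receptor of macrophages and some monocytes, stood at 255 CPM in VpR126, 1.01 in VpR83, 0.879 in VpR99, 2.31 in VpR2020 and 14 and 13.3 in the controls. Its ratio to VpR2020 was 110 (interval 81.5 to 153). Ccl5, a chemokine for T cells and monocytes, stood at 137 CPM in VpR126, 2.53 in VpR83, 3.6 in VpR99, 3.41 in VpR2020 and 19 and 15.1 in the controls. For both genes the other media fell below the controls and VpR126 above them.

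The promoters of 5 genes are shown because their genes stand for the groups that moved together. Promoter sequences are from RefSeq on GRCm38.p6 and run 5′ to 3′ over up to 250 bases before the annotated start. They were searched on both strands for the GATA motif AGATAA, the Ets motif GGAAGT, the interferon-stimulated response element (ISRE) pattern TTTCNNTTT, the Y box CCAAT, the C/EBP pattern TTNNGCAAT, and the X box and NF-kB motifs. Capitals mark the matches. Itga2b and Saa3 are markers, and Gp5, Ifit1 and H2-Aa were chosen after it was seen that their promoters hold matches. A match describes letters in the window and is not a measured binding site. Positions are counted from the RefSeq start. In GENCODE the Itga2b gene reaches to 102470122, so by that annotation most of its window lies inside the gene. For the megakaryocyte genes the 2 promoters are Itga2b (chr11:102469884-102470133, minus strand), with the Ets motif 26 to 21 bases and the ISRE pattern 117 to 109 bases before the start, and Gp5 (chr16:30310782-30311031, minus strand; its RefSeq start was not found in a GENCODE transcript), with GATA at 93 to 88 and 77 to 72 and Ets at 56 to 51.
Itga2b: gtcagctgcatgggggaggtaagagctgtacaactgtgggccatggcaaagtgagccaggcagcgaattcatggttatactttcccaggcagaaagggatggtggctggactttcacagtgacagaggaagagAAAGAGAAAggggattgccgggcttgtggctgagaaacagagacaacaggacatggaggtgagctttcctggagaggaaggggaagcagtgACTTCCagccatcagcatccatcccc
Gp5: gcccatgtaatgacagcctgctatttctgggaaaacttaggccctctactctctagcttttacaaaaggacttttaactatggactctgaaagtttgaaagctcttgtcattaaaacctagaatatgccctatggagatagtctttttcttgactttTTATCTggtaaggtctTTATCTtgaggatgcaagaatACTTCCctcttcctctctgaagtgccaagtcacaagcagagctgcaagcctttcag
Of the 16 counted megakaryocyte genes 13 were in the promoter table, 3 of them (F2rl2, Gp5 and Gp6) held the GATA motif and 4 (Gp5, Gp9, Itga2b and Mmrn1) the Ets motif. Over all 32851 promoters of the table the shares were 9.99% for GATA and 19.7% for Ets. These shares count each promoter, while a listed gene counts with a match in any of its promoters. Neither motif was particular to the megakaryocyte genes. GATA was held by 3 of 8 counted interferon gamma-induced genes in the table and Ets by 3 of 5 ATF4 targets counted lower. The remaining sets searched had lower shares of both.

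Type I interferon-stimulated genes lay at their highest in VpR126 for nearly the whole list. Of 26 type I interferon-stimulated genes, all at 5 CPM or more, VpR126 was the highest of the 4 media for 25 (96.2%, against 26.4% of all genes). It exceeded the nearest medium by more than 2-fold for 10 (38.5%), and the median log2 difference was 1.81. VpR99 was the nearest medium for each of those 10 genes. Without VpR99 all 26 were counted, with a median of 3.39. Summed over the list the level was 7191 CPM in VpR126, 3550 in VpR99, 595 in VpR83, 833 in VpR2020 and 596 and 719 in the controls. By this sum VpR83 and VpR2020 stayed near the controls, while VpR99 and VpR126 lay above them. Single genes went either way. In VpR2020 Ifit2 lay above both controls (54.7 against 16 and 15.3 CPM) and Isg20 below both (2.42 against 53.2 and 35.2).

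Ifit2, an interferon-induced protein that binds viral RNA complexes, stood at 1042 CPM in VpR126, 224 in VpR99, 54.7 in VpR2020, 23 in VpR83 and 16 and 15.3 in the controls. Parp14, an ADP-ribosyltransferase induced by interferon but not in the list, stood at 977 CPM in VpR126, 386 in VpR99, 210 in VpR2020, 165 in VpR83 and 31.7 and 49.2 in the controls. Ifit3 stood at 416 CPM in VpR126 and 67.2 in VpR99, and Ifit3b at 91.9 and 10.5. Mx1, an antiviral GTPase, stood at 396 CPM in VpR126, 85.8 in VpR99, 16.5 in VpR2020 and 10.2 in VpR83, with 8.98 and 12.9 in the controls. Rsad2 (viperin), which makes an antiviral nucleotide, stood at 701 CPM in VpR126, 163 in VpR99 and 56.1 and 29.9 in VpR2020 and VpR83. Mx2 stood at 43.9 CPM in VpR126 and 12.7 in VpR99. Ifit1, Ifi44 and Cmpk2 were counted as well. Isg15, a ubiquitin-like protein, was not counted, at 167 CPM in VpR126 and 86 in VpR99, and neither were Oas1a (145 against 132 CPM) and Isg20 (22.9 against 19.5). For Oas1a and Isg20 VpR126 and VpR99 were close, while Isg15 was just short of 2-fold.

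The promoter of Ifit1 (chr19:34640639-34640870, plus strand, ending 19 bases before the start) is shown because it holds the ISRE pattern at 104 to 96 and 85 to 77 bases before the start.
Ifit1: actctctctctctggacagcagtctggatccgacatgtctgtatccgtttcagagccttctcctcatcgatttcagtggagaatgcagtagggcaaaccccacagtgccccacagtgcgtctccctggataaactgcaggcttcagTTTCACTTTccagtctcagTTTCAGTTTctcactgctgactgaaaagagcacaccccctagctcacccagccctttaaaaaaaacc
Of the 10 counted type I genes 7 were in the table and 5 of these held the pattern (71.4%), against 9.37% of all promoters. Of the 11 counted interferon gamma-induced genes 8 were in the table and 7 held it (87.5%). A listed gene counts with a match in any of its promoters, while the 9.37% counts single promoters, so the units differ.

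Genes of the interferon gamma list had a larger share beyond 2-fold. Which interferon lies behind the levels of either list was not tested. Of 18 at 5 CPM or more, 11 were counted higher (61.1%, against 3.34% of all genes) and none lower, VpR126 was the highest of the 4 media for 17 (94.4%, against 26.4%), and the median log2 difference was 1.78. Gbp2, a guanylate-binding GTPase that attacks microbes inside cells, stood at 445 CPM in VpR126, 76.3 in VpR2020, 60.9 in VpR99, 22.2 in VpR83 and 9.98 and 11.7 in the controls. Gbp5 stood at 168 CPM in VpR126 and at 24.1, 20.4 and 6.71 in VpR2020, VpR99 and VpR83. Iigp1, an immunity-related GTPase, stood at 113 CPM in VpR126, 10.8 in VpR99, 3.74 in VpR2020 and 0.447 in VpR83. Cxcl10, a chemokine that attracts activated T cells, stood at 140 CPM in VpR126, 14.6 in VpR99, 4.78 in VpR2020 and 3.13 in VpR83, with 2.91 and 2.92 in the controls. Gbp4 (64.3 CPM) and Gbp6 (33.4 CPM) were at most 18 and 6.9 CPM in the other media. Gbp3, Igtp, Irgm2, Tgtp2 and Irf1 complete the count. For the Gbp genes named here VpR2020 and VpR99 lay close together, below VpR126 and above VpR83. Cd274, which encodes the checkpoint ligand PD-L1, was not counted, at 238 CPM in VpR126, 161 in VpR99, 95.4 in VpR2020 and 43.3 in VpR83. Nos2, the inducible nitric oxide synthase, was not higher: 1.18 CPM in VpR126, 15.4 in VpR99, 2.98 in VpR83 and 0.22 in VpR2020.

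Antigen presentation genes were highest in VpR126 by smaller margins. Of 12 class II genes at 5 CPM or more, VpR126 was the highest medium for 11 (91.7%, against 26.4% of all genes), and 4 were counted (33.3%, against 3.34%): H2-Aa, H2-Ab1, H2-Eb1 and Cd74. H2-Ab1 (ENSMUSG00000073421, chr17:34257689-34269419, plus strand), the beta chain of the I-A molecule, stood at 293 CPM in VpR126 (interval 286 to 300), 107 in VpR83, 105 in VpR99, 137 in VpR2020 and 256 and 238 in the controls. It was 2.14 times VpR2020 (interval 2.04 to 2.24) and was not counted when VpR83 was left out and the scaling recomputed. H2-Aa stood at 396 CPM in VpR126, 122, 116 and 168 in VpR83, VpR99 and VpR2020, and 250 and 247 in the controls. Cd74, the invariant chain that guides class II molecules, stood at 1047 CPM in VpR126, 303, 359 and 382 in the other media in the same order, and 717 and 772 in the controls. H2-Eb1 stood at 289 CPM in VpR126, 90, 94.6 and 124 in the other media and 166 and 176 in the controls. For these 4 genes the other media lay below both controls and VpR126 above them. Ciita, the master activator of class II genes, was not counted, at 30.7 CPM in VpR126, 12.7 to 16.4 in the other media and 9.89 and 10.5 in the controls. H2-DMa (122 CPM), H2-DMb1 (54.7) and H2-DMb2 (12.2), which load peptide, were within 2-fold of the nearest medium.

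B cells and dendritic cells carry class II genes as well, and their markers moved in the same direction. VpR126 was the highest of the 4 media for 12 of 13 B cell genes (92.3%) and for 9 of 10 dendritic cell genes (90%) at 5 CPM or more, against 26.4% of all genes. Of these, 4 B cell genes (30.8%) and 2 dendritic cell genes (20%) were counted higher, against 3.34% of all genes. The B cell list summed to 1120 CPM in VpR126, 334 to 627 in the other media and 4209 to 4452 in the controls, and no listed gene was at 0 counts in any library. Ms4a1 (CD20) stood at 38.7 CPM in VpR126, at most 15.8 in the others and 69.8 and 90.8 in the controls, and Ighd and Cd22 were counted too. Without VpR99, where 6.28% of all genes were counted, 12 B cell genes were, and Cd22 was lost without VpR83. The dendritic cell list summed to 785 CPM in VpR126, 301 to 449 in the other media and 369 to 495 in the controls, with no gene at 0 counts. Ccr7 (24 CPM against at most 10.6) and Fscn1 (14.4 against at most 6.65), both of migrating dendritic cells, were counted. Without VpR99 7 dendritic cell genes were, and without VpR2020, where 4.26% of all genes were counted, 4 were. The part of these cells in the class II values was not tested.

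The promoter of H2-Aa (chr17:34287824-34288073, minus strand) is shown for its Y box, the element of class II promoters, 48 to 44 bases before the start. It also holds overlapping matches of the NF-kB motif at 131 to 122 and 130 to 121.
H2-Aa: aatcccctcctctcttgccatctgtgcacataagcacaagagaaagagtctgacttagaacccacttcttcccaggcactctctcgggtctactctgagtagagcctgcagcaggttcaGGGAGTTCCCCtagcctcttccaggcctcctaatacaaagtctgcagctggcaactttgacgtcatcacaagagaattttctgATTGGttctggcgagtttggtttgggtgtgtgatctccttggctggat
The Y box letters are common and occur in 33.8% of all promoters, and the NF-kB motif in 3.9%. H2-Eb1 was the other counted class II gene in the table and held the Y box. Neither promoter held a match of the X box as searched, by a single strict pattern that 0.183% of all promoters matched. An X box of other letters would be missed, so its absence is not shown.

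Class I genes were highest in VpR126 for 15 of 16 members (93.8%, against 26.4% of all genes), with a median log2 difference of 1.14, and 1 passed 2-fold (6.25%, against 3.34%). This was H2-Q4, at 143 CPM in VpR126, 66.1 in VpR99, 29.3 in VpR83, 23.7 in VpR2020 and 109 and 90.8 in the controls. B2m, the light chain of class I molecules, stood at 3202 CPM in VpR126, 2211 in VpR99 and 1169 and 1455 in VpR83 and VpR2020. H2-K1 stood at 1923 CPM in VpR126, 1003 in VpR99, 617 in VpR83 and 600 in VpR2020, and H2-D1 at 2821, 1738, 1046 and 1085 in the same order. Reads of the near-identical class I genes may be split or lost in counting, so single values of H2-Q genes are uncertain.

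**Figure D3:**
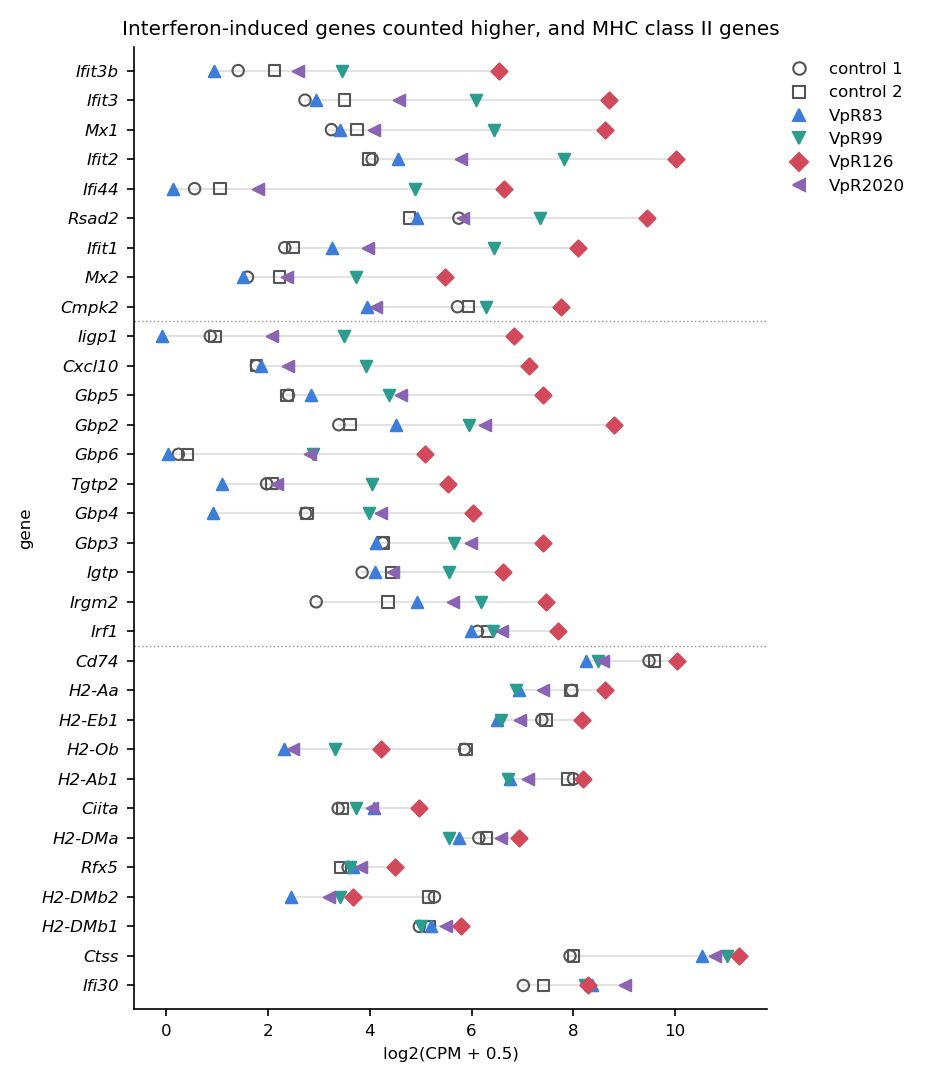
Levels as log2(CPM + 0.5) (x axis) of 32 genes (y axis) in the 6 libraries, 1 symbol per library: the counted type I interferon-stimulated genes but 1, counted interferon gamma-induced genes that are not in the first block, and all class II genes with at least 5 CPM, with dotted lines between the blocks. VpR126 (diamonds) is the rightmost of the 4 media in every row but that of Ifi30, and VpR99 is mostly the next in the first block.

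Genes of the acute phase and NF-kB response were counted for 7 of 15 members at 5 CPM or more (46.7%, against 3.34% of all genes), and for 11 without VpR99 (against 6.28%). Saa3 (ENSMUSG00000040026, chr7:46711998-46715700, minus strand), the serum amyloid A of macrophages, stood at 1272 CPM in VpR126 (interval 1257 to 1286). It stood at 387 CPM in VpR99, 74.8 in VpR83, 34.4 in VpR2020, and at 1 and 7 counts in the controls. VpR126 was 3.28 times VpR99 (interval 3.24 to 3.33). As a ratio, though not in CPM, the other media spread wider among themselves than the step from VpR99 to VpR126. Marco, a scavenger receptor for bacteria and particles, stood at 511 CPM in VpR126, 53.7 in VpR99, 38.6 in VpR2020, 31 in VpR83, and 0.549 and 0.556 in the controls. Acod1, which makes itaconate, stood at 398 CPM in VpR126, 113 in VpR99, 64.3 in VpR83 and 32.8 in VpR2020. Icam1 (262 CPM against 67.2 to 83.8), an adhesion molecule, Sod2 (381 against 80.9 to 118), the mitochondrial superoxide dismutase, and Cfb (6.02 against at most 0.326), complement factor B, were counted with Nfkbiz. Lcn2 and Hp, neutrophil granule genes as well as acute phase genes, were not counted: Lcn2 stood at 450 CPM in VpR126 and 192 to 1064 in the other media, and Hp at 328 and 125 to 681.

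The promoter of Saa3 (chr7:46715701-46715926, minus strand, ending 25 bases before the start) is shown as that of a marker gene. It holds the GATA motif at 134 to 129 and the ISRE pattern at 124 to 116 bases before the start, and no match of the NF-kB or C/EBP motif as searched.
Saa3: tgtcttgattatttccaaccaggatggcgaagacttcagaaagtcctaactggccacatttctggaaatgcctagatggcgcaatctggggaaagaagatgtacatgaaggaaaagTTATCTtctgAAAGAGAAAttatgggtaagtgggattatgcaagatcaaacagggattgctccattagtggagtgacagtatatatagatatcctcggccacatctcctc

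Of 18 macrophage genes Marco and Vcam1 were counted higher (11.1%, against 3.34% of all genes). The number was 4 without VpR99, where 6.28% of all genes were counted, and 5 without VpR2020, where 4.26% were. Csf1r, the receptor for the macrophage growth factor CSF1, stood at 4729 CPM in VpR126, 2639 in VpR2020, 1867 in VpR83 and 1014 in VpR99, and Adgre1 (F4/80) at 1726, 961, 713 and 573 in the same order. Mrc1, the mannose receptor, stood at 1169 CPM in VpR126 against 1288 to 1449 in the other media. Mmp9, a gelatinase of neutrophils, osteoclasts and macrophages, stood at 2411 CPM in VpR126, 810 in VpR2020, 294 in VpR99, 212 in VpR83 and 1453 and 1681 in the controls. Mmp14, a membrane-bound collagenase, stood at 446 CPM in VpR126 and 66.8 to 87.6 in the other media, and Timp3, a protease inhibitor of the matrix, at 26.8 CPM and at most 1.04. These 3 were counted of 12 matrix genes (25%), and 6 were without VpR99. The late neutrophil markers S100a8, S100a9 and Ltf were not counted, so Mmp9 was the single counted gene of 19 in that list. Of 8 osteoclast genes Mmp9, Itgb3 and Dcstamp, a fusion receptor (7.29 CPM against at most 2.8), were counted (37.5%), while Ctsk, the bone-resorbing cathepsin, was at 4.42 CPM within a range of 1.34 to 7.38 in the others.

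Signalling genes of suppression and attraction went in both directions. Over all genes 3.34% were counted higher and 0.73% lower, and 6.28% and 1.51% without VpR99. Among 16 T cell suppression genes Il10, the anti-inflammatory cytokine, stood at 10.2 CPM in VpR126, 1.83 in VpR99, 0.495 in VpR2020 and 0.41 in VpR83. Ptges (7.54 CPM against at most 3.59), a prostaglandin E synthase, was counted as well, but not with VpR99 thinned to the depth of VpR126, nor without VpR83 or VpR2020. Arg1 and Havcr2 were lower and are described below. The list's counts were thus 2 higher (12.5%) and 2 lower (12.5%), with 4 higher without VpR99. Among 11 CC chemokines Ccl5 (1 gene, 9.09%) was higher and Ccl3 (1 gene, 9.09%) lower (56.6 CPM against 114 to 147), the latter not under upper-quartile scaling. Ccl2, which attracts monocytes, was not counted, at 156 CPM in VpR126, 165 in VpR2020, 306 in VpR83 and 977 in VpR99. Cxcl16, at 148 CPM against 26.6 to 52.1, was counted beside Cxcl10 among 7 CXC chemokines (28.6%). The formyl peptide receptors Fpr1 (179 CPM against 16.3 to 76.4) and Fpr2 (123 against 13.1 to 51.1) were counted with Ccr7 among 13 receptors (23.1%). Cd163, the haemoglobin scavenger receptor, stood at 78.7 CPM against 6.97 to 12.9 in the other media and 22.3 and 21.6 in the controls, and Tgm2, a transglutaminase, at 206 against 52.2 to 92.7. Of 12 genes of alternative activation these 2 were counted higher (16.7%), and Arg1 was counted lower. Without VpR2020, where 4.26% of all genes were counted higher, 5 of the list were. Cd36, a scavenger receptor for lipids (731 CPM against 217 to 291), was the 1 gene counted higher of 15 lipid-associated macrophage genes (6.67%), and Spp1 the 1 counted lower (6.67%).

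Markers of other marrow lineages bear on these values. Of 15 progenitor genes 3 were counted higher (20%, against 3.34% of all genes), Gata2 and Slamf1 among them, and 8 without VpR99 (against 6.28%), while Cd34 stood at 7.92 CPM in VpR126 within a range of 5.25 to 11 in the other media. The progenitor list summed to 599 CPM in VpR126, 448 to 1106 in the other media and 774 to 781 in the controls. Of 12 mast cell and basophil genes Gata2 (6.83 CPM against at most 3.13) and Slc18a2 (7.46 against at most 3.38) were counted (16.7%), and 6 without VpR99. That list summed to 465 CPM in VpR126 and 382 to 440 in the other media, with 6 of 24 genes at 0 counts in VpR126. Of 16 erythroid genes 1 reached 5 CPM, Tfrc, the transferrin receptor of dividing cells, and 5 were at 0 counts in VpR126. The erythroid list summed to 390 CPM in VpR126, 77.7 to 208 in the other media and 3743 to 7127 in the controls. Tfrc alone stood at 380 CPM in VpR126, 114 in VpR83, 205 in VpR99 and 74.1 in VpR2020. The sums in the media are thus nearly all Tfrc and are no measure of erythroid RNA. Among T and NK cell genes none of the 4 at 5 CPM or more was counted, and the list summed to 134 CPM in VpR126 and 62.3 to 169 in the other media. Of 15 epithelial genes, the list for carried-over tumour cells, 3 reached 5 CPM, none was counted and 6 were at 0 counts in VpR126. The list summed to 1145 CPM in VpR126, of which Vim, the vimentin gene that marrow cells and macrophages also express, made up 1135 CPM, so the sum is no measure of epithelial RNA. Epcam, an adhesion molecule that defines epithelial cells, stood at 0.0421 CPM in VpR126, and Krt8 and Krt19, epithelial keratins, were at 0 counts there. The part of these cell types in the other results was not tested.

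Genes of the ATF4 programme held the highest share of members counted lower. Of 14 genes at 5 CPM or more, 6 were lower in VpR126 (42.9% against 0.73% of all genes), 1 was higher, and the median log2 difference was -0.85. Asns, which makes asparagine, stood at 6.4 CPM in VpR126, 43.1 in VpR83, 32.9 in VpR99, 33.7 in VpR2020 and 62.6 and 71.2 in the controls. VpR126 was 5.14 times below VpR99, the nearest medium (interval 4.37 to 6.09). Phgdh, the first enzyme of serine synthesis, stood at 15.7 CPM in VpR126, 57.2, 75.5 and 44 in VpR83, VpR99 and VpR2020, and 80.7 and 85.6 in the controls. Psat1, the next enzyme, stood at 29.6 CPM in VpR126 and 68.9 to 119 in the other media. Shmt2, which passes serine carbon to the mitochondrial folate pool, stood at 34.3 CPM against 69.5 to 110. Slc7a5, a transporter of large neutral amino acids, stood at 20 CPM against 40.5 to 109.

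The controls lay above VpR126 for these 5 genes, so the level in VpR126 was the lowest of the 6 libraries. Trib3, a pseudokinase induced by ATF4, was the sixth, at 1.35 CPM in VpR126, 5.06 to 8.61 in the other media and 1.29 and 1.81 in the controls, and was not counted when libraries were scaled by their totals alone. Atf4 itself stood at 149 CPM in VpR126, 267, 267 and 216 in the other media and 356 and 230 in the controls, within 2-fold of VpR2020. Ddit3 (CHOP) and Atf3, stress factors downstream of ATF4, were not counted. Vldlr, the lipoprotein receptor, was the member counted higher, at 5.22 CPM against at most 1.05, and was lost when scaled by totals alone. Of 15 endoplasmic reticulum chaperone genes none was counted, but VpR126 was the lowest of the 4 media for 13 (86.7%, against 38.1% of all genes). Their median log2 difference was -0.67, against -0.11 over all genes. Hspa5 (BiP) stood at 830 CPM in VpR126, 880 in VpR2020, 1240 in VpR83 and 1439 in VpR99.

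**Figure D4:**
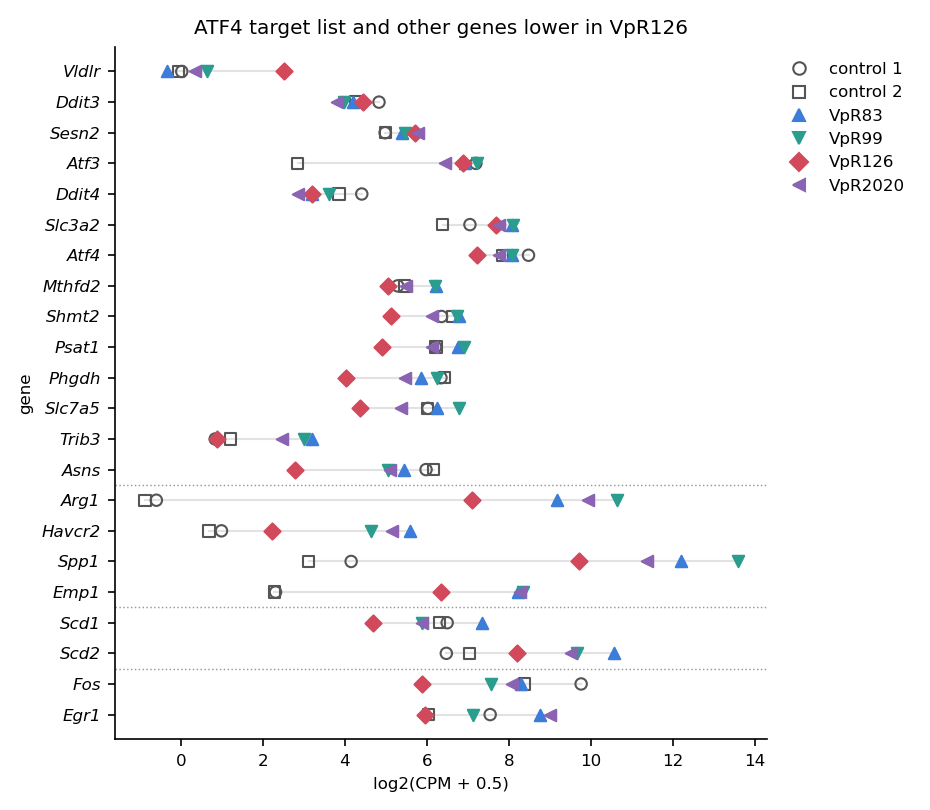
Levels as log2(CPM + 0.5) (x axis) in the 6 libraries of the 14 ATF4 target genes with at least 5 CPM, then Arg1, Havcr2, Spp1 and Emp1, then Scd1 and Scd2, then Fos and Egr1 (y axis), with dotted lines between the blocks. VpR126 (diamonds) is the leftmost of the 4 media from Slc3a2 downward.

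Arg1 and Spp1, genes high in all 4 media, were lower in VpR126 and still far above the controls. Arg1, the arginase with which myeloid cells deplete arginine, stood at 137 CPM in VpR126, 574 in VpR83, 1588 in VpR99, 978 in VpR2020, and at 5 and 1 counts in the controls. It was 4.2 times below VpR83 (interval 4.04 to 4.36). Spp1 (osteopontin), a secreted matrix protein of macrophages, stood at 833 CPM in VpR126, 4657 in VpR83, 12231 in VpR99, 2632 in VpR2020, and 17.3 and 8.16 in the controls. Havcr2, the checkpoint receptor TIM-3, stood at 4.21 CPM in VpR126, 47.5 in VpR83, 24.5 in VpR99, 35.2 in VpR2020, and 1.49 and 1.11 in the controls. At 5.81 times below the nearest medium (interval 4.76 to 7.16) it was the lowest relative to the other media of the genes named here. Emp1, a membrane protein, stood at 81.1 CPM in VpR126, 297 to 325 in the other media and 4.46 and 4.36 in the controls. Arg1, Spp1, Havcr2 and Emp1 thus lay between the controls and the other media.

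Other genes at the lower end of the range had varied roles. Runx3, a transcription factor of lymphocytes and myeloid cells, stood at 13.9 CPM in VpR126, 45.3 to 52.6 in the other media and 33.9 and 34 in the controls. Mpzl1, an adhesion protein, stood at 3.37 CPM against 11.1 to 12.4, and Galnt3, an enzyme of O-glycosylation, at 1.98 against 5.72 to 6.89. Cpeb1 (2.28 CPM against 6.78 to 17.8), which binds mRNA tails, and Tnfsf8 (1.81 against 5.68 to 12.8), the CD30 ligand, complete the 12 largest ratios together with Fos. Scd2, a fatty acid desaturase, stood at 292 CPM in VpR126, 1511 in VpR83, 809 in VpR99 and 732 in VpR2020, and Scd1 at 25.1, 162, 58.4 and 58.6 in the same order. Ifitm1 stood at 91.7 CPM in VpR126, 257 in VpR83, 993 in VpR99 and 209 in VpR2020, the opposite direction to the type I interferon list. Osm, a cytokine of the interleukin 6 family, stood at 15.7 CPM against 38.2 to 43.1.

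Among 15 immediate early genes Fos and Egr1 were lower (13.3%, against 0.73% of all genes). Fos, a subunit of AP-1, stood at 58.1 CPM in VpR126, 311 in VpR83, 188 in VpR99, 270 in VpR2020, and 867 and 332 in the controls. Egr1 stood at 61.9 CPM in VpR126, 432, 140 and 513 in the other media, and 186 and 65.5 in the controls. Without VpR99 4 members were counted (against 1.51% of all genes). The 2 controls differed from each other by more than 2-fold for both genes.

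Cell cycle genes lay at their lowest in VpR126 across nearly the whole list, with VpR2020 close to it. Of 26 genes VpR126 was the lowest of the 4 media for 25 (96.2%, against 38.1% of all genes), and the median log2 difference was -1.47. Ccnb2, a mitotic cyclin (20.1 CPM in VpR126, 41.6 in VpR2020, 71.6 in VpR83, 78.2 in VpR99), and Birc5, survivin (24, 48.9, 88.9 and 98.4 CPM in the same order), were counted lower (7.69%, against 0.73% of all genes). Mki67 stood at 312 CPM in VpR126, 370 in VpR2020, 776 in VpR83 and 762 in VpR99, and Top2a at 159, 227, 471 and 616. Summed over the list the level was 1377 CPM in VpR126, 1780 in VpR2020, 3754 in VpR83, 4589 in VpR99 and 5245 to 5581 in the controls. The count rested on VpR2020: 24 members were lower without it, where 6.01% of all genes were, and 4 without VpR83, where 1.24% were. The glycolysis and hypoxia list had the same order, with none of 23 genes counted, a median of -0.81 and summed levels of 6102 CPM in VpR126, 6558 in VpR2020, 11856 in VpR83 and 13960 in VpR99. Of 20 cholesterol synthesis genes VpR126 was the lowest medium for 14 (70%), none was counted, and the median was -0.46. The 18 lysosome genes had a median of -0.02 and none was counted in either direction.

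**Figure D5:**
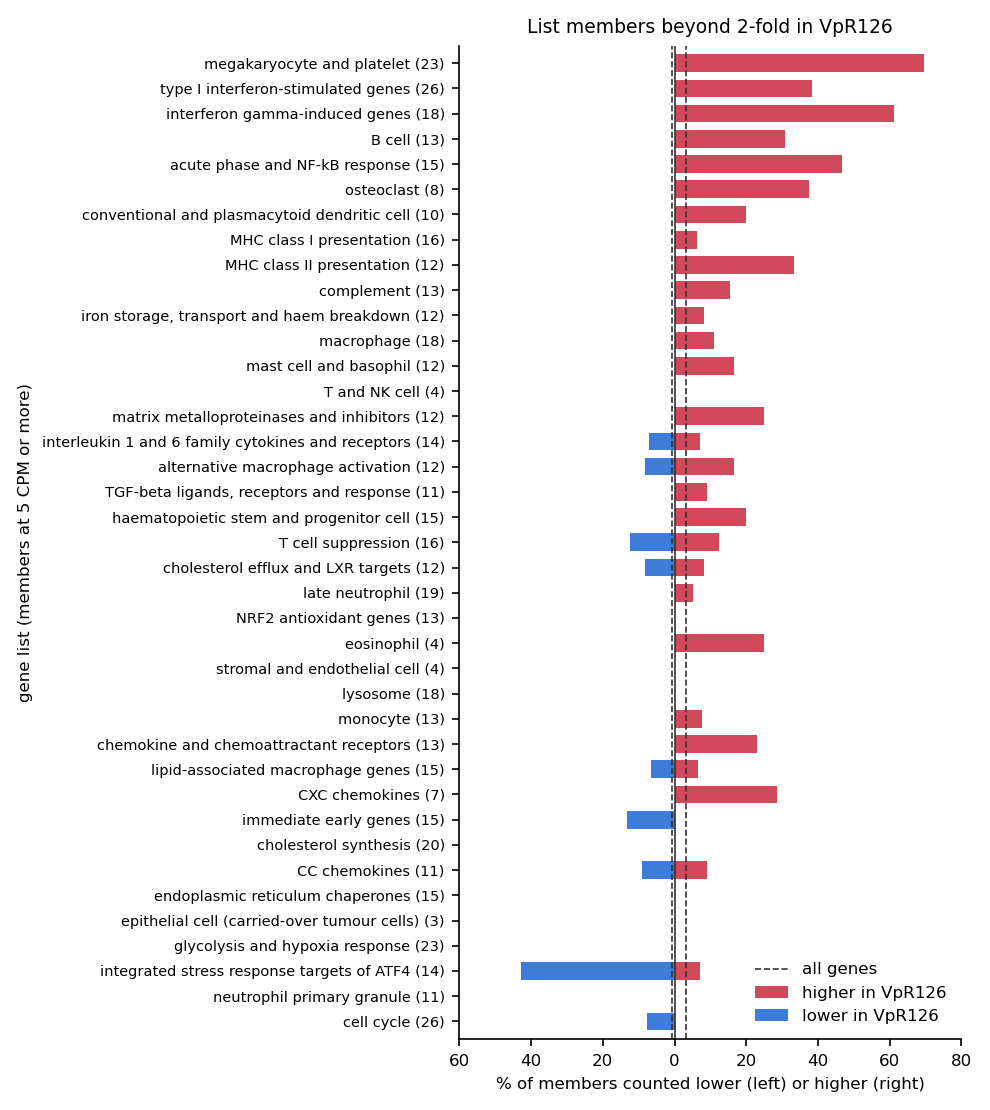
Share of each gene list's members with at least 5 CPM (their number in brackets) that was counted higher (red, to the right) or lower (blue, to the left) in VpR126, with lists ordered from top to bottom by decreasing median difference and dashed lines at the shares over all genes, 3.34% and 0.73%. The megakaryocyte, interferon gamma and acute phase lists lead on the right and the ATF4 list on the left, and the cell cycle list is last in order although few of its members passed 2-fold against VpR2020.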

How the data were processed

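The authors deposited unnormalized counts of reads for 45706 Ensembl identifiers, and 45143 of them matched GENCODE M21, which gave symbols and positions. The submitters' processing notes name Trimmomatic 0.38, STAR 2.5.2b and GRCm38. Which program counted the reads, and whether by strand, is not given in the sources used here, so overlapping antisense genes cannot be told apart. Counts were scaled by TMM (edgeR 4.0.16, R 4.3.3) and divided to CPM. Each of the 6 columns was mapped to its sample by name. The rules were run on simulated counts with planted 4-fold changes, in which the other 3 media shared the same mean for each gene. The real libraries differ among themselves, so that run checks the code and not the calls.

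The library, the 40 gene lists, the thresholds and the promoters were chosen with earlier results of these data known. Genes named are the markers, the 12 largest ratios and 5 highest levels per direction, up to 6 counted and 3 other members of each list, and threshold neighbours. Other list members are named only to complete a count. Alternatives were other scalings, thinning of VpR99, leaving out each library, other thresholds, minimums and pseudocounts, and the median in place of the mean. No test was run, since VpR126 has 1 library. Values depend on its single preparation. Results of a few genes are not reported here.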

Additional observations from a re-analysis of the deposited data

How the results depend on the processing

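The counts depended on the threshold, the minimum level and the comparators more than on the scaling. At a 4-fold threshold 122 genes were higher and 4 lower, and at 1.5-fold 757 and 414. With a minimum of 1 CPM the numbers were 693 and 153, and with 20 CPM 207 and 38. Leaving out each of the other media in turn gave 306 to 656 higher and 131 to 633 lower genes. Other scalings gave 329 to 411 higher and 73 to 83 lower, and thinning VpR99 to the depth of VpR126 gave 376 and 72, of which 351 and 72 were among the genes first counted. The numbers of genes above or below the controls kept within 1.5 times without either control, while the 11 higher and 4 lower genes between the controls fall to 0 by construction. Of the list counts recomputed, 127 stayed within 1.5 times and 20 moved. Of the recomputed differences of named genes, 1901 stayed within the gene's spread among the other media and 52 moved, and none reversed. That spread was the standard deviation of log2 CPM over VpR83, VpR99 and VpR2020, and counting error was not used. A gene that varies widely among those media therefore stays within it easily. Without VpR83 or VpR2020 the median over all genes was -0.2 or -0.21. Cpd was not counted under RLE or upper-quartile scaling. Values near 0.5 CPM in the other media, as for most megakaryocyte genes, make log2 differences depend on the amount added. No paired analysis was possible because each conditioned medium has 1 library and the replicate numbers of the controls match none of them.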
